A study of Hernandia nymphaeifolia with 9 samples.

Results

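A set of 60 assembled genes of Hernandia nymphaeifolia leaves had several-fold more RNA after both 14 d and 7 d of salt water than in fresh water, at a similar level at both salt times. Hernandia nymphaeifolia is a tree of tropical shores that grows beside mangroves. The members were chosen from their own measured levels among 315331 assembled genes. An assembled gene is the sum of all assembled transcripts whose identifier is the same up to the isoform number, and its level is given in CPM, a gene's counts scaled to a common library size. A gene was taken when the mean of the control libraries was under 500 CPM, when the lowest of the 6 salt libraries had at least 10 CPM and at least 4 times the highest control library, and when the mean at 14 d divided by the mean at 7 d lay between 0.67 and 1.5. The higher level in salt and the closeness of both salt times are therefore properties of the choice and carry no test here.

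Leaf RNA came from seedlings 2 years old that were submerged up to the branches for 3 h in each period of 12 h. In the 14 d group the water held 300 mM NaCl for 14 d, in the 7 d group it held 300 mM NaCl for 7 d, and the control seedlings stood in fresh water. Each group had 3 libraries from 3 individual seedlings. The day on which the control seedlings were sampled is not given in the sources used here, so plant age and time in the tidal regime cannot be told apart from salt. Nothing in the files pairs the identifiers with gene names, so leaf markers could not be looked up and no function is given to any member.

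Salt water first makes it harder for a plant to take up water and then loads its leaves with sodium and chloride. Plants answer by keeping sodium out of the cytosol or storing it in vacuoles, by signalling through abscisic acid, and by making compatible solutes and protective proteins. Plants of tidal shores meet such water again and again, so levels held over many days are of interest there.

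Libraries held 13166552 to 14201943 counts, so that 3 counts were worth 0.211 to 0.228 CPM. Replicates of a group differed by more than counting noise, with a chi-square per degree of freedom of 3.84 to 13.2. Replicate 3 at 14 d stood apart from the others of its group, with values of 10.9 and 9.79 against replicates 1 and 2, which differed from each other by 4.19. In the controls, replicates 1 and 3 were the farthest apart. Without replicate 3 at 14 d the same rule found 73 genes, and 52 of the 60 members were among them. Without replicate 2 at 14 d it found 75 genes, with 59 of the members among them. In RNA of a whole leaf, fewer cells of a type and less RNA per cell cannot be told apart.

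Of all assembled genes, 12160 had at least 10 CPM in all 6 salt libraries, and 101 of these had at least 4 times the highest control library in the lowest salt library, a share of 0.831%. The window on the ratio of 14 d to 7 d kept 60 of the 101, while 27 had a ratio below 0.67 and 14 a ratio above 1.5. A milder criterion, all 6 salt libraries above all 3 control libraries, was met by 18.7% of the 12160 genes. In edgeR's quasi-likelihood test all 60 members were called higher at 14 d and at 7 d, at a Benjamini-Hochberg adjusted p below 0.05. The same call was made for 7.97% of the 62564 genes tested at 14 d, for 11.3% at 7 d and for 5.09% at both times. The calls of the members rest on the contrast that chose them, and nothing is read from them. Both salt times were set against the same 3 control libraries.

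**Figure D1:**
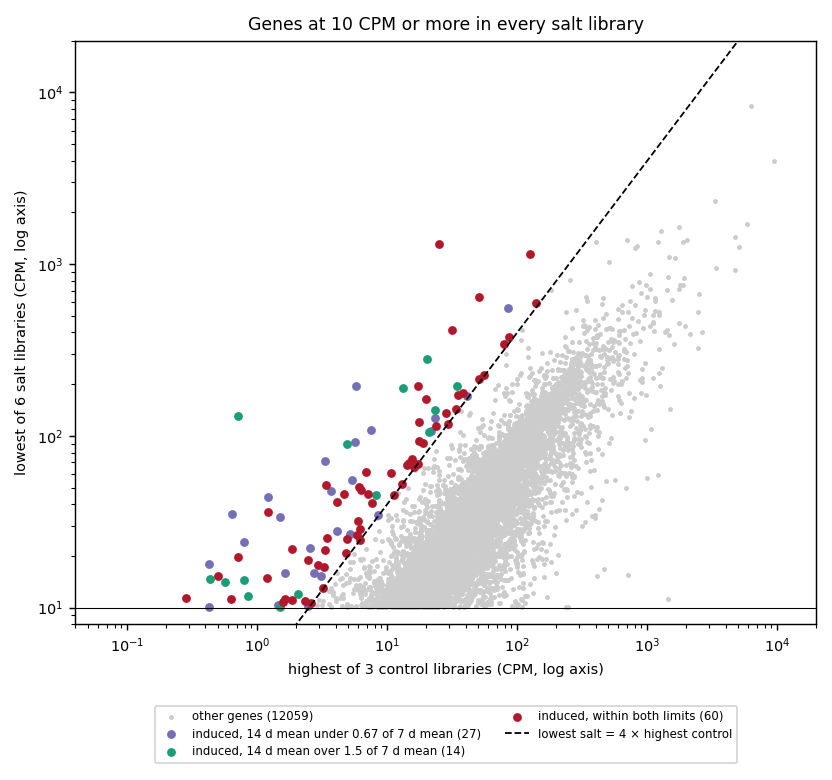
Each of the 12160 genes with at least 10 CPM in all 6 salt libraries, by its lowest salt library (vertical, CPM, log axis) and its highest control library (horizontal, CPM, log axis). The 101 coloured genes lie above the dashed line, where the lowest salt library is 4 times the highest control library: 60 members, 27 genes with a ratio of 14 d to 7 d under 0.67 and 14 with a ratio over 1.5.

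Genes just inside and just outside each limit had close values. At the limit of 10 CPM, TRINITY_DN29964_c0_g1 with 10.6 CPM and TRINITY_DN4435_c0_g3 with 10.7 CPM in their lowest salt library were inside, and TRINITY_DN11389_c0_g2 with 9.80 CPM and TRINITY_DN3619_c0_g3 with 9.72 CPM were outside. At the limit of 4, TRINITY_DN4485_c0_g2 with a ratio of 4.01 and TRINITY_DN27044_c0_g1 with 4.03 were inside, and TRINITY_DN8683_c0_g1 and TRINITY_DN720_c0_g1, both with 3.88, were outside. At the lower edge of the window, TRINITY_DN6776_c0_g7 with a ratio of 14 d to 7 d of 0.690 and TRINITY_DN28771_c0_g1 with 0.697 were inside, and TRINITY_DN10666_c0_g2 with 0.668 and TRINITY_DN8409_c0_g3 with 0.663 were outside. At the upper edge, TRINITY_DN7331_c0_g6 with 1.47 and TRINITY_DN1863_c0_g1 with 1.39 were inside, and TRINITY_DN10099_c0_g2 with 1.53 and TRINITY_DN568_c1_g1 with 1.55 were outside. The limit on the control mean removed no gene: the highest control means among the members were 112 CPM in TRINITY_DN4315_c1_g1 and 107 CPM in TRINITY_DN870_c0_g1.

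Together the members took 1.37%, 1.12% and 0.956% of the counts of the 14 d libraries, 1.35%, 1.07% and 1.14% at 7 d, and 0.0889%, 0.0995% and 0.105% in the controls. The means were 1.15% ± 0.210 at 14 d, 1.19% ± 0.146 at 7 d and 0.0976% ± 0.0080 in the controls (SD, n = 3 each). The ratio of mean CPM in salt to mean CPM in the controls ran from 4.74 to 136 at 14 d, with a median of 9.51, and from 4.46 to 188 at 7 d, with a median of 10.8. On the log2 scale the medians were 3.25 at 14 d and 3.43 at 7 d. The lowest salt library exceeded the highest control library by 4.01 to 52.4 times, with a median of 5.36, and by at least 10 times in 13 members and at least 20 times in 5. Most members had little RNA in fresh water: the control mean was under 10 CPM in 35 of the 60 and under 5 CPM in 27.

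**Figure D2:**
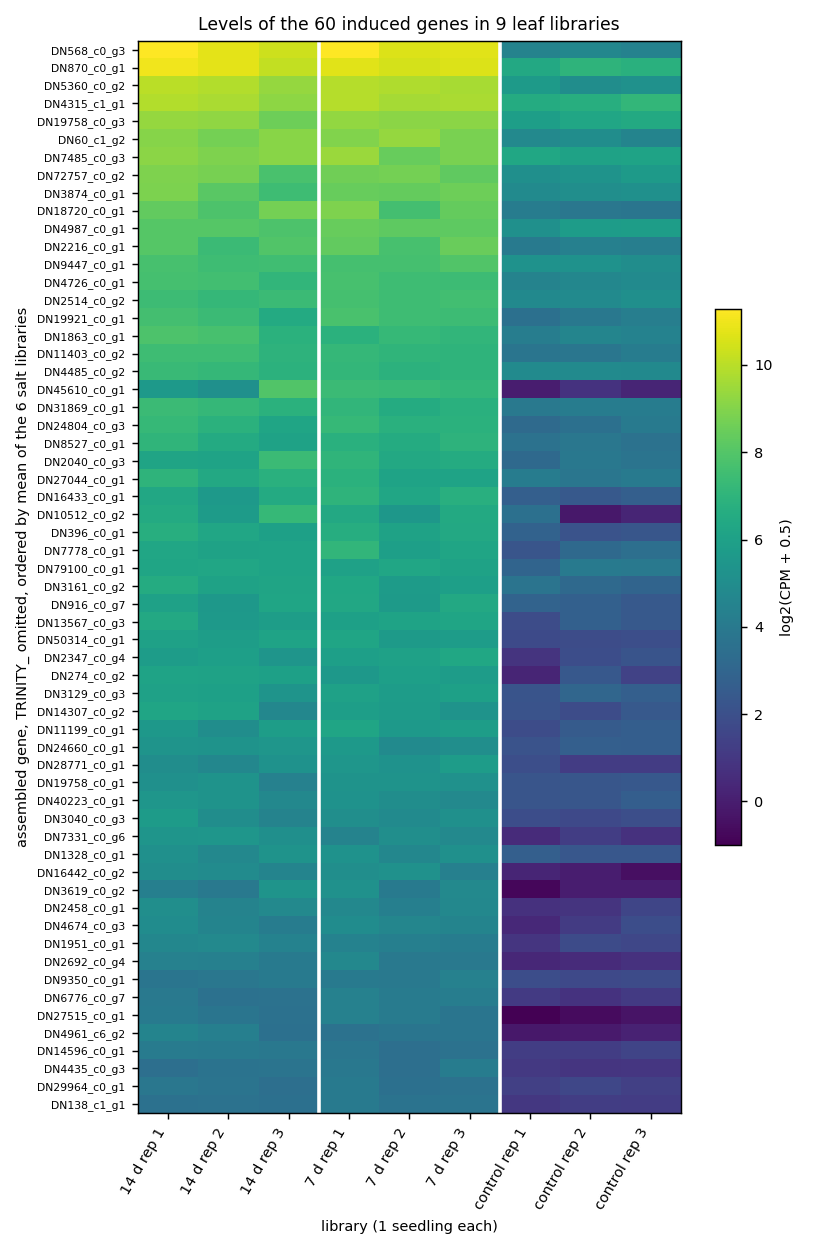
Level of each of the 60 members in each of the 9 libraries, as log2(CPM + 0.5), with the libraries in columns in the order 14 d, 7 d and control and the genes in rows by their level in salt. Every row is higher in the 6 salt columns than in the 3 control columns, as the choice requires, and replicate 3 at 14 d departs from its neighbours in many rows.

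The 8 members with the largest share of counts in salt held 56.3 to 64.5% of the members' counts in the salt libraries and 50.2 to 51.2% in the controls. These shares are not corrected for transcript length, which the files do not give, so they do not rank the number of RNA molecules. TRINITY_DN568_c0_g3 was the foremost. It had 2495, 1785 and 1305 CPM at 14 d, 2449, 1575 and 1715 CPM at 7 d, and 21.9, 24.9 and 21.5 CPM in the controls. Its means were 81.8 times the control mean at 14 d and 84.0 times at 7 d, and its lowest salt library had 52.4 times its highest control library, the widest gap among the members. All of its counts were on 1 assembled isoform.

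TRINITY_DN870_c0_g1 was already among the more abundant members in fresh water. It had 2087, 1754 and 1146 CPM at 14 d, 1709, 1419 and 1587 CPM at 7 d, and 85.7, 126 and 109.8 CPM in the controls, which is 15.5 times the control mean at 14 d and 14.7 times at 7 d. TRINITY_DN5360_c0_g2 had 1021, 928 and 644 CPM at 14 d, 968, 909.9 and 813 CPM at 7 d, and 50.7, 32.4 and 36.2 CPM in the controls. In both genes replicate 3 was the lowest of the 14 d libraries, and the salt and control libraries were far apart.

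TRINITY_DN4315_c1_g1 and TRINITY_DN19758_c0_g3 combined a high level in salt with a smaller ratio. TRINITY_DN4315_c1_g1 had 941, 857 and 594 CPM at 14 d, 982, 788 and 853 CPM at 7 d, and 93.1, 103 and 139 CPM in the controls. TRINITY_DN19758_c0_g3 had 649, 600.3 and 377 CPM at 14 d, 622, 565 and 559.5 CPM at 7 d, and 59.4, 76.2 and 86.6 CPM in the controls. Their lowest salt libraries, replicate 3 at 14 d in both, had 4.28 and 4.35 times the highest control library. Both fell below the limit of 4 when libraries were scaled by TMM, a scaling that evens out the bulk of genes, and left the set.

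TRINITY_DN60_c1_g2 and TRINITY_DN7485_c0_g3 had another order of libraries. TRINITY_DN60_c1_g2 had 534, 416 and 554 CPM at 14 d, 501, 651 and 454 CPM at 7 d, and 27.1, 31.6 and 22.6 CPM in the controls. TRINITY_DN7485_c0_g3 had 569, 474 and 548 CPM at 14 d, 693, 341 and 446 CPM at 7 d, and 78.4, 66.6 and 69.4 CPM in the controls. Here replicate 3 at 14 d was not the lowest of its group, and the libraries of both salt times overlapped. The eighth, TRINITY_DN72757_c0_g2, had 483, 434 and 214 CPM at 14 d, 398, 418 and 307 CPM at 7 d, and 34.8, 38.6 and 50.8 CPM in the controls.

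**Figure D3:**
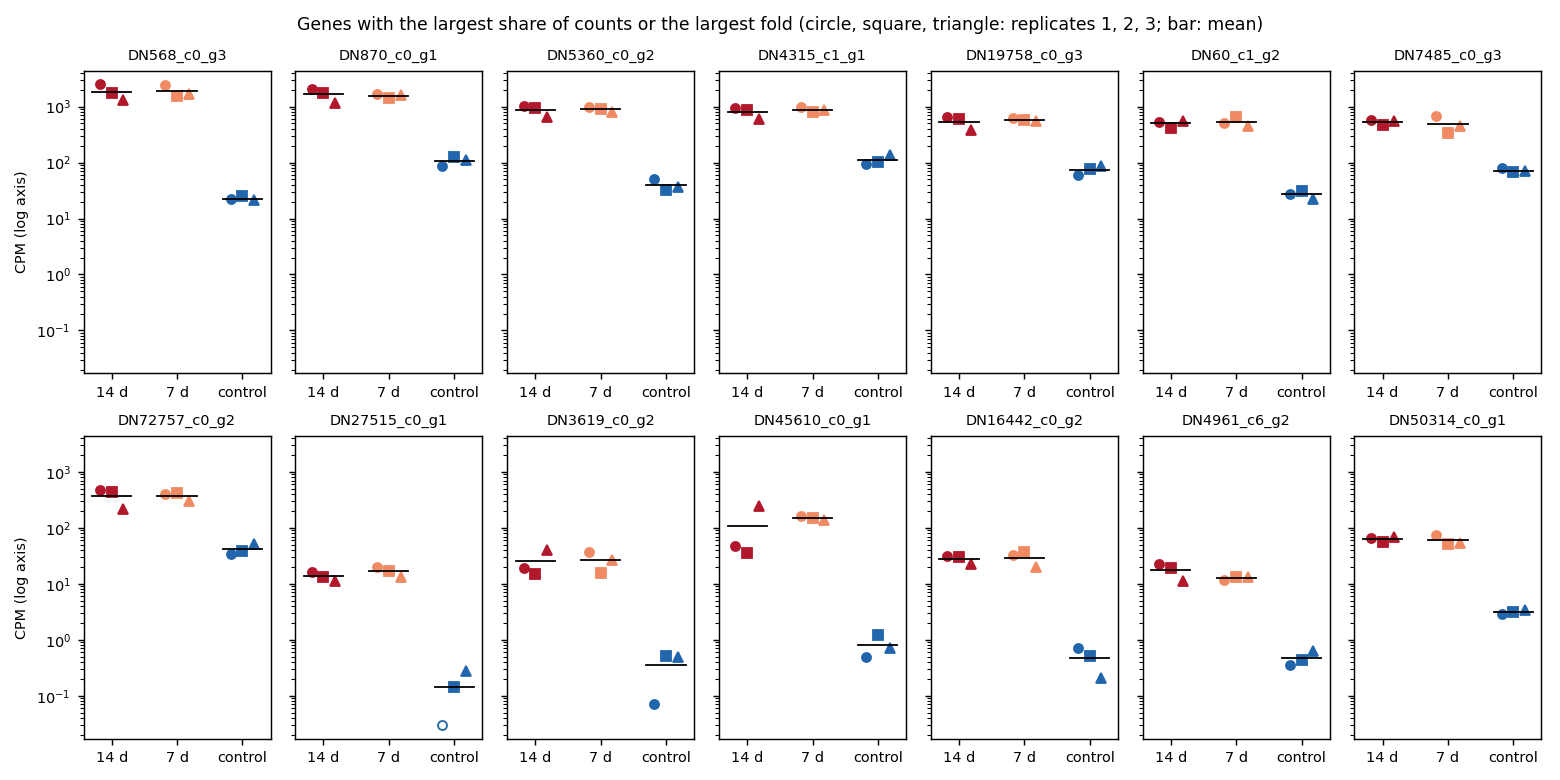
CPM (log axis) of the members named for their share of counts in salt or for their ratio of the lowest salt to the highest control library, 1 panel per gene and 1 point per library, in the order 14 d, 7 d and control (circle, square and triangle for replicates 1, 2 and 3, bar for the mean, open point for a library without counts). TRINITY_DN568_c0_g3 shows the widest gap, and TRINITY_DN45610_c0_g1 shows replicate 3 at 14 d far above the other two.

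Apart from TRINITY_DN568_c0_g3 and TRINITY_DN60_c1_g2, whose lowest salt library had 13.2 times its highest control library, the members with the widest gap between salt and control had little RNA in fresh water. TRINITY_DN27515_c0_g1 was the closest to absent there, with 0, 0.144 and 0.282 CPM in the controls, against 16.3, 13.4 and 11.4 CPM at 14 d and 20.3, 16.8 and 13.4 CPM at 7 d. It was the only member with a control library without counts, and its control values rest on 0, 2 and 4 counts. Its log2 change was 6.59 at 14 d and 6.89 at 7 d, with 7.57 at 14 d and 7.87 at 7 d without control replicate 3 and 6.01 at 14 d and 6.30 at 7 d without control replicate 1, so the size of its ratio is poorly fixed.

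TRINITY_DN3619_c0_g2 had 19.3, 15.3 and 40.9 CPM at 14 d, 37.2, 15.6 and 27.0 CPM at 7 d, and 0.0713, 0.503 and 0.493 CPM in the controls. TRINITY_DN16442_c0_g2 had 31.8, 29.8 and 22.5 CPM at 14 d, 32.6, 36.4 and 19.6 CPM at 7 d, and 0.713, 0.503 and 0.211 CPM in the controls. These controls rest on 1 to 10 counts per library. Both genes were detected at trace level in fresh water and well above it in salt at both times.

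TRINITY_DN4961_c6_g2 had 22.7, 19.1 and 11.2 CPM at 14 d, 11.9, 13.3 and 13.1 CPM at 7 d, and 0.356, 0.431 and 0.634 CPM in the controls. TRINITY_DN50314_c0_g1 had 65.6, 55.9 and 69.7 CPM at 14 d, 75.0, 52.1 and 54.5 CPM at 7 d, and 2.85, 3.09 and 3.38 CPM in the controls. For TRINITY_DN50314_c0_g1, which had 40 or more counts in each control library, the ratio to the control mean is better fixed, at 20.5 at 14 d and 19.5 at 7 d.

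TRINITY_DN45610_c0_g1 had the largest ratios of means, 136 at 14 d and 188 at 7 d, and also the widest spread among the salt libraries. It had 47.9, 36.0 and 245 CPM at 14 d, 164, 153 and 139.8 CPM at 7 d, and 0.499, 1.22 and 0.704 CPM in the controls. Its highest salt library had 6.81 times its lowest, and both belong to the 14 d group. Without replicate 3 its mean at 14 d was 41.9 CPM, its log2 change at 14 d was 5.70 in place of 7.08, and its ratio of 14 d to 7 d was 0.275, outside the window. Its place among genes with a like level at both times therefore rests on that library.

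The salt libraries of TRINITY_DN10512_c0_g2 also ranged widely, with 90.2, 53.5 and 151 CPM at 14 d, 85.8, 45.5 and 87.6 CPM at 7 d, and 11.3, 0.359 and 0.704 CPM in the controls. Most of the control counts came from replicate 1, and leaving that library out gave a log2 change of 7.53 in place of 4.58 at 14 d and 7.10 in place of 4.15 at 7 d. TRINITY_DN14307_c0_g2 had 73.8, 66.5 and 25.2 CPM at 14 d, 57.7, 53.1 and 38.6 CPM at 7 d, and 3.99, 3.09 and 4.93 CPM in the controls. Its lowest salt library was replicate 3 at 14 d, the library in which TRINITY_DN45610_c0_g1 and TRINITY_DN10512_c0_g2 were highest.

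The steadiest members in salt were TRINITY_DN79100_c0_g1, TRINITY_DN4485_c0_g2 and TRINITY_DN9447_c0_g1. TRINITY_DN79100_c0_g1 had 75.2, 76.3 and 68.6 CPM at 14 d, 65.9, 77.5 and 66.3 CPM at 7 d, and 7.27, 16.0 and 14.9 CPM in the controls. TRINITY_DN4485_c0_g2 had 158, 146 and 117 CPM at 14 d, 142, 119 and 125 CPM at 7 d, and 29.3, 29.0 and 28.3 CPM in the controls. TRINITY_DN9447_c0_g1 had 212, 177 and 185 CPM at 14 d, 204, 202 and 248 CPM at 7 d, and 38.0, 38.1 and 32.0 CPM in the controls. Their highest salt libraries had 1.18, 1.34 and 1.40 times their lowest, and for TRINITY_DN79100_c0_g1 the spread was wider in the controls.

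Members varied more between seedlings of a group than the median gene with at least 10 CPM in salt. The median SD of log2 CPM within a group was 0.31 at 14 d, 0.24 at 7 d and 0.26 in the controls, against 0.13, 0.13 and 0.16 over the 12160 genes with at least 10 CPM in salt. The ratio of the highest to the lowest salt library had a median of 1.79 over the members and 1.43 over those genes. Members have fewer counts in the controls than most of these genes, and the part of counting noise in the control value was not tested.

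The order of the seedlings was shared by many members, and at 7 d also by many other genes called higher at both times. Among the 3 libraries at 14 d, replicate 1 was the highest in 38 of 60 members (63.3%), against 24.1% of the 12160 genes and 36.3% of the 1066 other genes among them called higher at both times. Replicate 3 at 14 d was the lowest in 35 members (58.3%), against 41.9% and 35.6% of these sets. Among the 3 libraries at 7 d, replicate 1 was the highest in 38 members (63.3%), against 36.4% and 53.0%, and replicate 2 the lowest in 37 (61.7%), against 31.2% and 57.6%. The shares are descriptions of 3 seedlings per group, since members of a library are not replicates. With TMM scaling, which corrects for the bulk of genes in a library, replicate 1 was the highest at 14 d in 43 members (71.7%), against 42.8% of the 12160 genes and 51.3% of the other genes called at both times. Replicate 3 was then the lowest at 14 d in 58.3% of members, against 48.9% and 39.3%. At 7 d replicate 1 was the highest in 65.0%, against 41.2% and 56.8%, and replicate 2 the lowest in 70.0%, against 41.4% and 64.9%.

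Replicate 3 was the highest 14 d library in 15 members (25.0%), a smaller share than the 39.5% of the 12160 genes and the 45.7% of the other genes called at both times. In 13 of the 15 (86.7%) replicate 2 was the lowest 7 d library, against 45.8% of the genes with the same order at 14 d. Among the 35 members for which replicate 3 was the lowest 14 d library, 15 (42.9%) had their lowest 7 d value in replicate 2, against 18.3% of such genes. The level in replicate 3 divided by the mean of replicates 1 and 2 at 14 d ran from 0.359 to 5.84, with a median of 0.842. It was at least 1.5 in 4 members and under 0.67 in 18. So the members did not follow a single order across the seedlings.

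Means at 14 d were higher than at 7 d in 24 members and lower in 36, or higher in 21 and lower in 39 with TMM scaling, and the ratio had a median of 0.948. The libraries of both times overlapped in 52 members, while in 4 all 14 d libraries lay above all 7 d libraries and in 4 all lay below. These 8 make 13.3% of the members, against 40.4% of the 12160 genes, and the window on the ratio limits this share. Leaving out replicate 3 at 14 d moved 8 members out of the set. Among them TRINITY_DN1863_c0_g1, TRINITY_DN4961_c6_g2 and TRINITY_DN7331_c0_g6 then had ratios of 14 d to 7 d of 1.65, 1.63 and 1.58, and TRINITY_DN3619_c0_g2 had 0.649. Leaving out replicate 2 at 7 d moved 5 members out.

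How a gene's counts were divided among its assembled isoforms was not used in choosing the members. Isoforms of an assembled gene may be splice forms, alleles or near-identical copies, which these files cannot tell apart, and reads that match several of them were divided by estimation. Of the 60 members, 19 had a single isoform (31.7%, against 20.7% of the 12160 genes), and 41 had several. The members comprised 161 isoforms, of which 75 met the limits of 10 CPM and 4 times by themselves. Among the 41 members with several isoforms, 22 had 1 isoform that met them, 14 had more and 5 had none, and in 20 of the 22 that isoform was also the most abundant in salt.

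For 6 of the 41 members the isoform with the most counts at 14 d and at 7 d did not lead alone or at all in fresh water. These were TRINITY_DN18720_c0_g1, TRINITY_DN2216_c0_g1, TRINITY_DN45610_c0_g1, TRINITY_DN274_c0_g2, TRINITY_DN24660_c0_g1 and TRINITY_DN28771_c0_g1. The last of them was a tie in the controls: i13 had 39 of the gene's 98 counts, and i8, the leader in salt, held 39.8%. In TRINITY_DN1328_c0_g1 and TRINITY_DN27515_c0_g1 the leading isoform differed from that of the controls at 14 d but not at 7 d, and TRINITY_DN27515_c0_g1 had 6 control counts in all. In TRINITY_DN1951_c0_g1 and TRINITY_DN79100_c0_g1 it differed at 7 d but not at 14 d. Some of these leads were narrow. At 7 d i2 of TRINITY_DN1328_c0_g1 had 688 counts and i6 had 654. In the controls i6 of TRINITY_DN79100_c0_g1 had 210 counts and i8 had 197. Changes of the leading isoform against the controls were not tested. In TRINITY_DN2216_c0_g1, isoform i20 made up 44.0% ± 3.65 of the counts at 14 d and 47.5% ± 4.73 at 7 d, against 3.14% ± 1.57 in the controls (SD, n = 3 each). Isoform i1 of that gene held 13.1% ± 3.80 at 14 d, 8.69% ± 2.73 at 7 d and 75.4% ± 2.88 in the controls, while its level was 28.2 CPM at 14 d, 24.5 CPM at 7 d and 13.8 CPM in the controls. The gene's higher sum in salt was thus carried mostly by isoforms other than the leading form of fresh water.

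Isoforms of a gene could differ in size of change. In TRINITY_DN60_c1_g2, isoform i4 had a mean 30.7 times the control mean at 14 d and 31.4 times at 7 d, whereas i2 had 1.70 times at 14 d and 3.84 times at 7 d. In TRINITY_DN24660_c0_g1, i3 had 20.6 times the control mean at 14 d and 19.0 times at 7 d, whereas i1 had 1.57 times at 14 d and 0.493 times at 7 d. In TRINITY_DN870_c0_g1, by contrast, i1 held 73.6% at 14 d, 72.6% at 7 d and 57.4% in the controls and stayed the leading isoform throughout, with i5 at 21.0%, 20.5% and 21.5% in the same order. In the 22 members with 1 isoform meeting the limits there were 42 other isoforms, and 23 of these had at least 30 counts in the controls. Of the 23, 16 had at least 2 times the control mean at either salt time and 7 did not.

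The division of counts between isoforms was tested for 14 d against 7 d, a comparison for which the choice of members used only sums over isoforms, in edgeR's differential isoform test on all 18721 genes with several tested isoforms. Of the 38 members with at least 2 tested isoforms, 5 were called at an adjusted p below 0.05 (13.2%), against a background of 7.25% of all genes. With 38 genes, a difference of this size amounts to a few genes. The 18721 genes were not limited to those with at least 10 CPM in all 6 salt libraries, as the members were. A share matched for level was not computed. In limma's test 4 members were called (10.5%, background 5.23%), of which TRINITY_DN24660_c0_g1 was the only one also called by edgeR's test. In edgeR's Simes test 3 were called (7.89%, background 3.05%): TRINITY_DN7485_c0_g3, TRINITY_DN3874_c0_g1 and TRINITY_DN79100_c0_g1. On simulated data edgeR's test called more genes in error than its threshold allows.

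TRINITY_DN24660_c0_g1 was called by edgeR's differential isoform test (adjusted p 0.0249) and by limma's (0.0298). The Simes test did not call it (adjusted p 0.0906). Isoform i1 had 36, 58 and 49 counts at 14 d, 17, 13 and 15 counts at 7 d, and 27, 41 and 26 counts in the controls. It held 8.60% ± 2.41 of the gene's counts at 14 d, 3.09% ± 0.436 at 7 d and 42.7% ± 9.87 in the controls (SD, n = 3 each). Its 14 d and 7 d libraries did not overlap, and the change of i1 relative to the rest of the gene was 1.49 (log2). The call was lost in 7 of the alternatives tried, among them each 7 d replicate left out in turn, where the adjusted p was 0.0558 to 0.0910, within a range of 0.0192 to 0.189 over all of them.

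In TRINITY_DN7485_c0_g3 (edgeR adjusted p 0.00404, limma 0.211), isoform i5 had 26, 65 and 15 counts at 14 d, 4, 3 and 8 at 7 d, and 11, 13 and 11 in the controls. The main isoform i3 held 97.9% ± 1.79 of the counts at 14 d, 99.5% ± 0.197 at 7 d and 93.5% ± 1.43 in the controls, so the change concerned a small part of the gene. In TRINITY_DN3874_c0_g1 (edgeR adjusted p 0.00686, limma 0.721), isoform i16 had 0, 0 and 2 counts at 14 d, 38, 50 and 49 at 7 d, and 7, 10 and 0 in the controls. In TRINITY_DN79100_c0_g1 (edgeR adjusted p 0.0250, limma 0.325), isoform i7 had 22, 14 and 30 counts at 14 d, none in any 7 d library, and 0, 0 and 19 in the controls. In this gene control replicate 3 was the only control library with counts of i7, so the controls did not agree among themselves. Among the alternatives in which these isoforms were tested, the call was lost in 2 for TRINITY_DN7485_c0_g3 and in 2 for TRINITY_DN3874_c0_g1. For TRINITY_DN79100_c0_g1 it was lost in 7.

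TRINITY_DN11403_c0_g2 (edgeR adjusted p 0.0455, limma 0.0633) was the only gene among the 5 in which the isoform leading the call held over 10% of the gene's counts at both salt times. Isoform i1 had 513, 442 and 233 counts at 14 d, 185, 201 and 226 at 7 d, and 10, 10 and 13 in the controls, which was 18.0% ± 3.59 of the gene's counts at 14 d, 11.3% ± 2.00 at 7 d and 5.34% ± 0.133 in the controls. The call was lost in 13 of the alternatives. Without replicate 2 at 14 d none of the 5 was called, with adjusted p-values of 0.0658 to 0.189 in edgeR's test. In that setting 0 of 39 members tested were called by edgeR's test and 6 had an unadjusted p below 0.05; limma's test also called 0, with 6 below 0.05, and the background was 3.76% of all genes in edgeR's test. The changes themselves stayed in the same direction without it, at 1.27 (log2) for isoform i1 of TRINITY_DN24660_c0_g1 and 0.70 for i1 of TRINITY_DN11403_c0_g2. Without any single 7 d replicate 2 members were called.

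**Figure D4:**
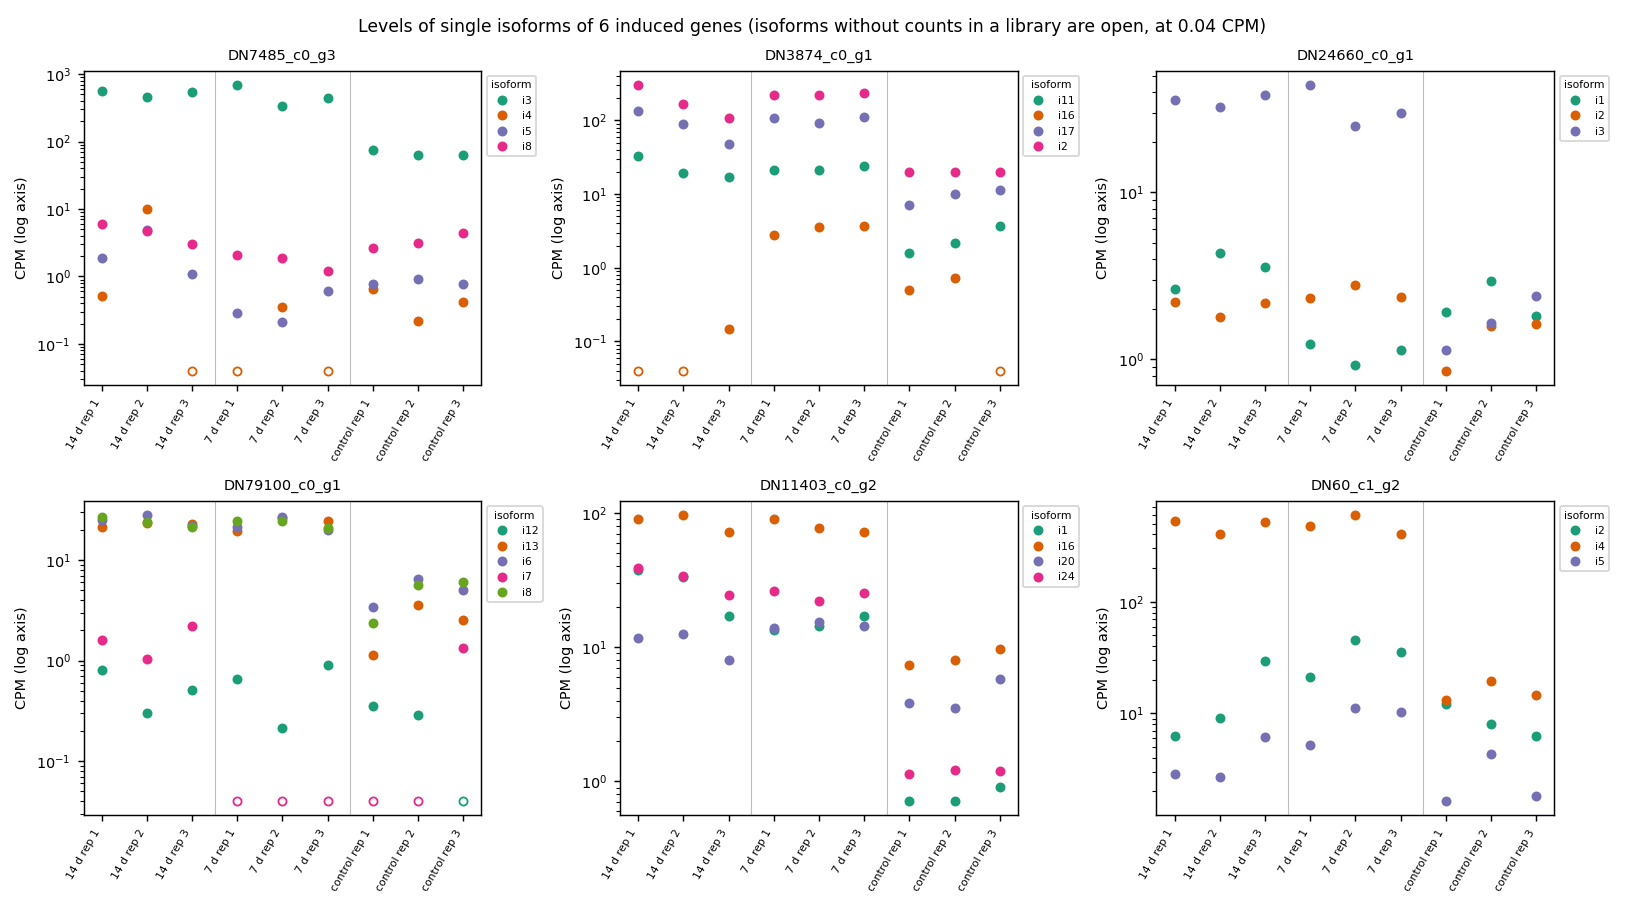
CPM (log axis) of single isoforms in the 5 members called for isoform use between 14 d and 7 d and in TRINITY_DN60_c1_g2, with libraries in the order 14 d, 7 d and control; open points are isoforms without counts in that library. In TRINITY_DN24660_c0_g1 isoform i1 is higher at 14 d than at 7 d in all libraries, and in TRINITY_DN60_c1_g2 isoform i4 has by far the largest change between salt and control.

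Assembled genes that share the cluster part of the identifier with a member are its closest neighbours in the assembly. They may share sequence with it, so that reads may be divided between them. Of the 60 members, 49 had such a neighbour and 11 had none. TRINITY_DN19758 was the only cluster with more than 1 member: besides TRINITY_DN19758_c0_g3, TRINITY_DN19758_c0_g1 had 35.2, 39.9 and 20.8 CPM at 14 d, 38.6, 38.7 and 36.3 CPM at 7 d, and 4.28, 4.45 and 4.79 CPM in the controls. Both genes were lowest in replicate 3 among the 14 d libraries.

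There were 122 neighbours outside the set, and 94 had enough counts for edgeR's test. Of these, 19 were called higher at 14 d (20.2%, background 7.97%), 29 at 7 d (30.9%, background 11.3%) and 17 at both times (18.1%, background 5.09%). In the other direction 7 were called lower at 14 d (7.45%, background 8.40%), 11 at 7 d (11.7%, background 13.9%) and 5 at both times (5.32%, background 5.48%), shares near the background. At neither time were 50 called (53.2%, background 69.3%). The median fitted log2 change of the neighbours was 0.18 at 14 d and 0.12 at 7 d, against 0.01 at 14 d and -0.02 at 7 d over all genes tested. Since neighbours may take reads of the members, these shares are not independent of the choice of members.

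TRINITY_DN3161_c0_g3, a neighbour of the member TRINITY_DN3161_c0_g2, had a mean of 56.4 CPM at 14 d, 29.0 CPM at 7 d and 0.238 CPM in the controls; its 14 d libraries ran from 14.8 to 113 CPM. TRINITY_DN3619_c0_g3, a neighbour of TRINITY_DN3619_c0_g2, had 15.5 CPM at 14 d, 17.0 CPM at 7 d and 0.524 CPM in the controls, and missed the set by its lowest salt library. TRINITY_DN7331_c0_g1, a neighbour of TRINITY_DN7331_c0_g6, had 492 CPM at 14 d, 269 CPM at 7 d and 69.5 CPM in the controls. Others had levels close to the controls. TRINITY_DN568_c0_g4, in the cluster of TRINITY_DN568_c0_g3, had 83.1 CPM at 14 d, 85.7 CPM at 7 d and 65.9 CPM in the controls, and was called higher at 7 d and not at 14 d, a difference between the times that was not tested. TRINITY_DN870_c0_g2 was called lower at both times, with 13.0 CPM at 14 d, 9.62 CPM at 7 d and 20.9 CPM in the controls. Neighbours that were called higher and neighbours that were called lower therefore both occurred.

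**Figure D5:**
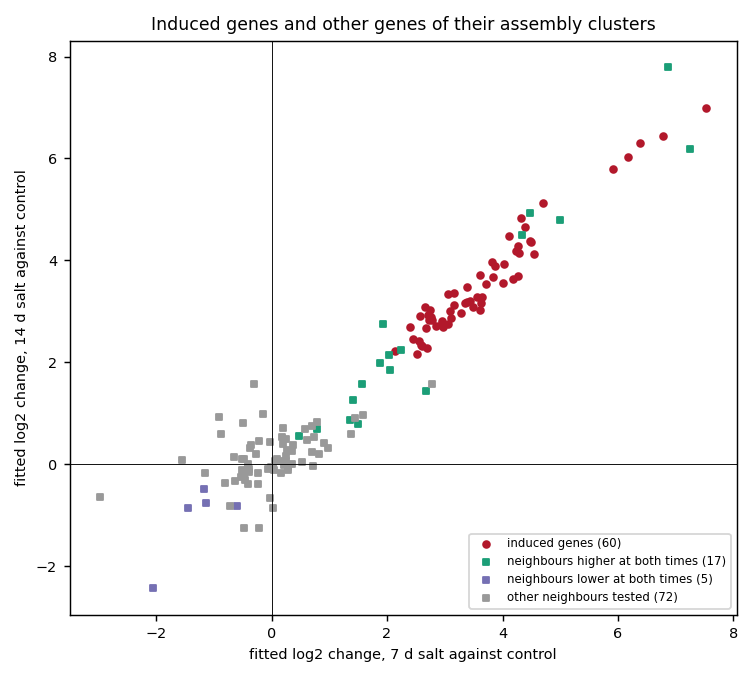
Fitted log2 change against control at 14 d (vertical) and 7 d (horizontal) of the tested neighbours of the members, with the members for comparison. Members lie in the upper right because of the way they were chosen, while the neighbours spread around 0, with 17 of the 94 called higher and 5 called lower at both times.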

How the data were processed

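The authors deposited 1 table of estimated counts for assembled transcripts, with no scaling of the libraries. The submitters' processing notes list Salmon, HISAT2 and FastQC and give no version or role for them, and the identifiers follow the naming of the Trinity assembler. How the assembly was set up is not stated in the labels. All values were whole numbers and were used as deposited, so the depth of a library is its column total.

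Transcripts were summed per assembled gene and divided by the column total to give CPM. The members and lists were chosen with earlier results of these data known. Named members were the 8 with the largest share of counts in salt, the 8 with the largest ratio of lowest salt to highest control library, those called for isoform use, the 3 with the largest and the 3 with the smallest spread among salt libraries, those sharing a cluster, and the 2 genes nearest each limit; other genes named with the isoforms, with the neighbours or as lost from the set were chosen after their values were seen. Lists of known salt genes could not be used without gene names.

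Gene sums were tested in R 4.3.3 with edgeR 4.0.16 (expression filter with minimum count 10 and minimum total 15, TMM scaling, quasi-likelihood F test, 1 model over all 9 libraries, 62564 genes). Isoform use at 14 d against 7 d was tested with edgeR's diffSpliceDGE over 18721 genes, with limma 3.58.1 and Simes tests beside it. P-values were adjusted by the Benjamini-Hochberg method over all genes tested, and the procedures were tested on simulated data. Alternatives were DESeq2 1.42.0, other scalings, filters and limits, the replicate number as a block, and each library left out in turn. The Simes test and the alternatives for neighbours and for single members were added after the data were seen. P-values measure the spread between individual seedlings.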

Additional observations from a re-analysis of the deposited data

Results flagged for a closer look

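For 5 of the 38 members tested, isoform use differed between 14 d and 7 d in edgeR's differential isoform test, with adjusted p-values of 0.00404 for TRINITY_DN7485_c0_g3, 0.00686 for TRINITY_DN3874_c0_g1, 0.0249 for TRINITY_DN24660_c0_g1, 0.0250 for TRINITY_DN79100_c0_g1 and 0.0455 for TRINITY_DN11403_c0_g2. At both salt times the isoform that led the call held under 10% of the gene's counts in the first 4 of these, although i1 of TRINITY_DN24660_c0_g1 held 42.7% in the controls. In TRINITY_DN11403_c0_g2 isoform i1 held 18.0% at 14 d and 11.3% at 7 d. By limma the adjusted p of the first, the second and the fourth were 0.211, 0.721 and 0.325. These 3 were called in edgeR's Simes test, with adjusted p-values of 0.0219, 0.00518 and 0.0210 in the same order. TRINITY_DN24660_c0_g1 had 0.0298 by limma and 0.0906 in edgeR's Simes test. Its isoform i1 had higher counts in all 3 libraries at 14 d than in all 3 at 7 d. The 5 calls make 13.2% of the 38 members, against 7.25% of all 18721 genes tested, a difference of a few genes. On simulated data edgeR's differential isoform test called more genes in error than its threshold allows. Without replicate 2 at 14 d it called 0 members.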

How the results depend on the processing

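The number of members was 60. It was 26 with a limit of 6 times the highest control library in place of 4, and 104 when single transcripts were judged in place of gene sums: 72 isoforms of 55 members and 32 isoforms of other genes. With TMM-scaled library sizes 48 genes met the rule, 46 of them members, with 3 times the highest control library 90, with a lowest salt library of 20 CPM 46, and with a window of 0.8 to 1.2 41. With a library left out it ran from 62 to 75. Leaving a library out loosens limits set on the lowest salt and the highest control library, so a rise is built in. Without any one control library all 60 members stayed, as the rule requires. The log2 changes of members against control kept their direction under the alternatives tried. The rule fixes this in advance, so nothing is read from it. The changes moved by less than 1 SD between the salt replicates of that time in 1133 cases. They moved by more in 67, nearly all with a control library left out. Among the 1133 are changes at 1 salt time with a library of the other time left out, which cannot move. The number of members called for isoform use between 14 d and 7 d was 5, and 2 when only isoforms with at least 10% of the gene were tested, 3 in edgeR's Simes test and 0 to 8 with a library left out; the alternatives other than these and the replicate block gave 4 to 6. It was 0 without replicate 2 at 14 d in edgeR's test, where 6 members had an unadjusted p below 0.05 and limma's test also called 0, 2 without any one of the 7 d replicates, 3 without replicate 1 at 14 d and 8 without replicate 3 at 14 d, and the cause was not tested. Of 86 recomputed calls of the 5 members, 31 were lost. Between 11348 and 18133 genes were called at 7 d, where the main count was 15765, and between 7147 and 12332 at 14 d, where it was 10237. Between 23 and 29 neighbours were called higher at 7 d and between 15 and 23 at 14 d.

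Same-numbered libraries of different groups deviated together with a correlation of -0.218 to 0.385, over 0.1 in 5 of 9 pairs. Of the 9 libraries, 4 correlated best with one of their own number. The highest correlation, 0.467, was between control replicate 3 and 7 d replicate 1. The labels do not state whether the numbers pair seedlings, and with 3 seedlings per group these correlations cannot decide it. With the replicate number as a block 3 members were called for isoform use, and 9757 genes were called at 14 d and 15164 at 7 d.

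Levels under 0.211 to 0.228 CPM rest on fewer than 3 counts, which limits the ratios of members nearly absent from the controls.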
